A study of Rattus norvegicus with 26 samples.

Results

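Clone 3c3 is 1 of 2 lines of rat multipotent adult progenitor cells (rMAPCs) whose RNA was hybridized to arrays while the cells were turned towards smooth muscle cells (SMCs). The 3 arrays of d6 are described here against the 3 arrays of d0, so that 6 of the 26 arrays of the study carry the comparison, chosen by clone and day from their labels. The d2 and d4 arrays of 3c3 enter the probe filter and the spread of the fit and place single genes in time, the other line (Cl19, 3 arrays per day, from a donor aged 3 weeks) serves to test where 3c3 differed, and 2 arrays of RNA that the study calls primary SMC RNA and the labels rat aortic RNA place single genes. Clone 3c3 was isolated from bone marrow of a female Fischer rat donor of embryonic day 18 and expresses *Oct4*, and it stands for 1 clone, not for rMAPCs in general. On d0 the RNA was taken before, and on d6 after, 6 days of culture in basal rMAPC medium with TGF-β and PDGF-BB. The study describes this culture as free of serum. Both growth factors were present in every d6 sample, and no 6-day culture without them is part of the comparison. The growth factors, the serum-free medium and the time in culture thus cannot be told apart. Nothing in the labels says whether the 3 replicates of a day were separate cultures, so the p-values measure the spread between these samples, which may be technical.

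rMAPCs of this type are undifferentiated cells that carry *Oct4* together with transcription factors of the primitive endoderm, the extraembryonic layer that gives rise to the visceral and the parietal yolk sac. TGF-β, a secreted factor that signals through Smad proteins, is known to arrest many cell types before DNA replication and to induce contractile genes in SMC precursors, and PDGF-BB is a growth factor for mesenchymal cells. SMCs are recognised by actin-binding and contractile proteins such as SM22α (*Tagln*), calponin and tropomyosins, whereas keratins, claudins and E-cadherin are proteins of epithelia. The question addressed is which genes and functions 3c3 cells gained and lost over the whole course, beyond the smooth muscle genes for which the culture was designed.

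Cy3-labeled RNA of 1 sample was put on each Agilent rat array, and the values below are quantile-normalized log2 signals. Of 41012 probes, 22530 could be given 1 of 17307 gene symbols, and 11062 genes were tested in 3c3, each by its brightest probe. Between 43.2% and 56.9% of the gene features were well above background on the 6 arrays. Replicate 3 had the higher background, with a negative control signal of 31.5 on d0 and 35.0 on d6 against 12.5 and 10.9 on the d0 arrays of replicates 1 and 2. The median SD of a probe over the 3 arrays was 0.21 on d0 and 0.30 on d6. On every slide d0 lay at position 1 and d6 at position 4, so that day and position cannot be told apart. A lower signal in these bulk samples can come from fewer cells of a type or from less RNA per cell, which cannot be told apart either.

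Most of the transcriptome differed between d6 and d0. The share of tested genes past the threshold (limma, adjusted p below 0.05) was 67.7%, with 3135 genes higher on d6 (28.3%) and 4357 lower (39.4%). The rises were the larger changes. The median change of the genes that were higher was 1.22 on the log2 scale and that of the genes that were lower −0.89, and 502 genes rose by over 3 log2 units whereas 143 fell by as much. Over 4 log2 units, 271 genes rose and 55 fell. Every d6 array lay above, or every one below, all d0 arrays for 7066 genes (63.9% of those tested). On the level of probes 13719 of 21312 passed (64.4%), 5243 of them higher (24.6%) and 8476 lower (39.8%). This balance depends on the scaling: without normalization between arrays 6749 probes were higher and 5725 lower, so that 54.1% of the called probes were higher in place of 38.2%, and the median change of all probes moved up by 0.26. It also moved up by 0.14 with another background correction (normexp). Single large changes were not affected in sign, since 3088 of the 3135 genes that were higher and 4300 of the 4357 that were lower had the same sign in all 4 scalings. Because most genes differed, the share of a gene list that was higher or lower is to be read against 28.3% and 39.4%.

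**Figure D1:**
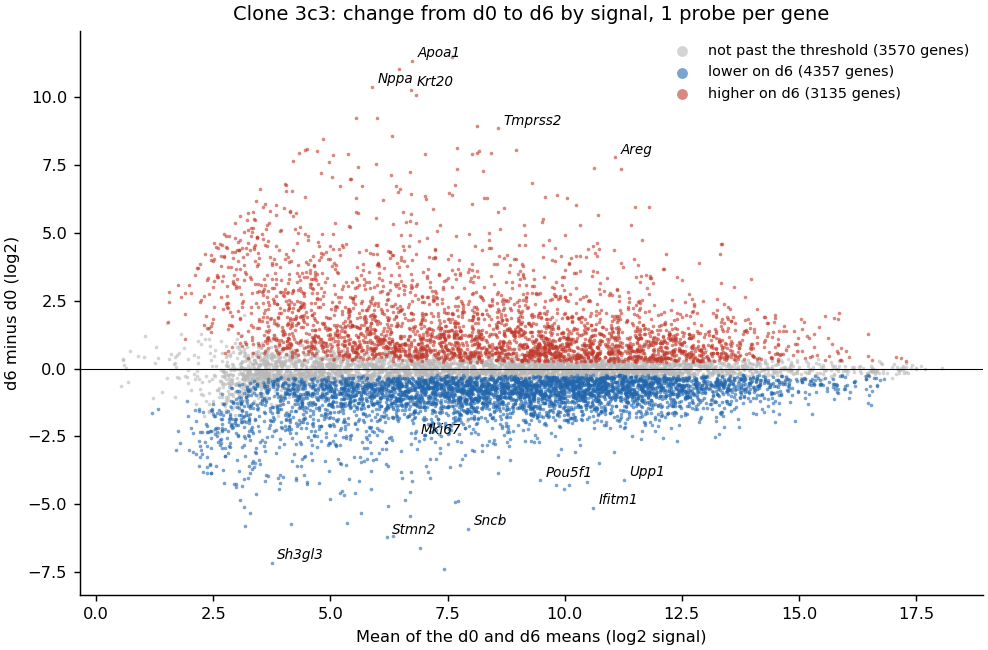
Change from d0 to d6 in 3c3 (y axis, log2) against the mean of the d0 and d6 means (x axis, log2 signal), with 1 point per tested gene. Red points are the 3135 genes that were higher and blue points the 4357 that were lower past the threshold, and grey points are the other 3570. Rises reach further from 0 than falls.

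Gene lists for 56 functions were compared with these shares, each list described by how many of its tested members were higher, lower or not past the threshold. A gene was tested only if the scanner software called its probe well above background (the flag used throughout) on all 3 arrays of some day of 3c3, so that list members that were dim throughout are not in the counts, and a member that passed only through the day on which it was bright could hardly fail to differ. The lists for DNA replication, mitosis and ribosome biogenesis had hardly a member that was higher. Hardly one was lower in the lists for CDK inhibitors, D cyclins and growth arrest, for immediate early genes and for smooth muscle.

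**Figure D2:**
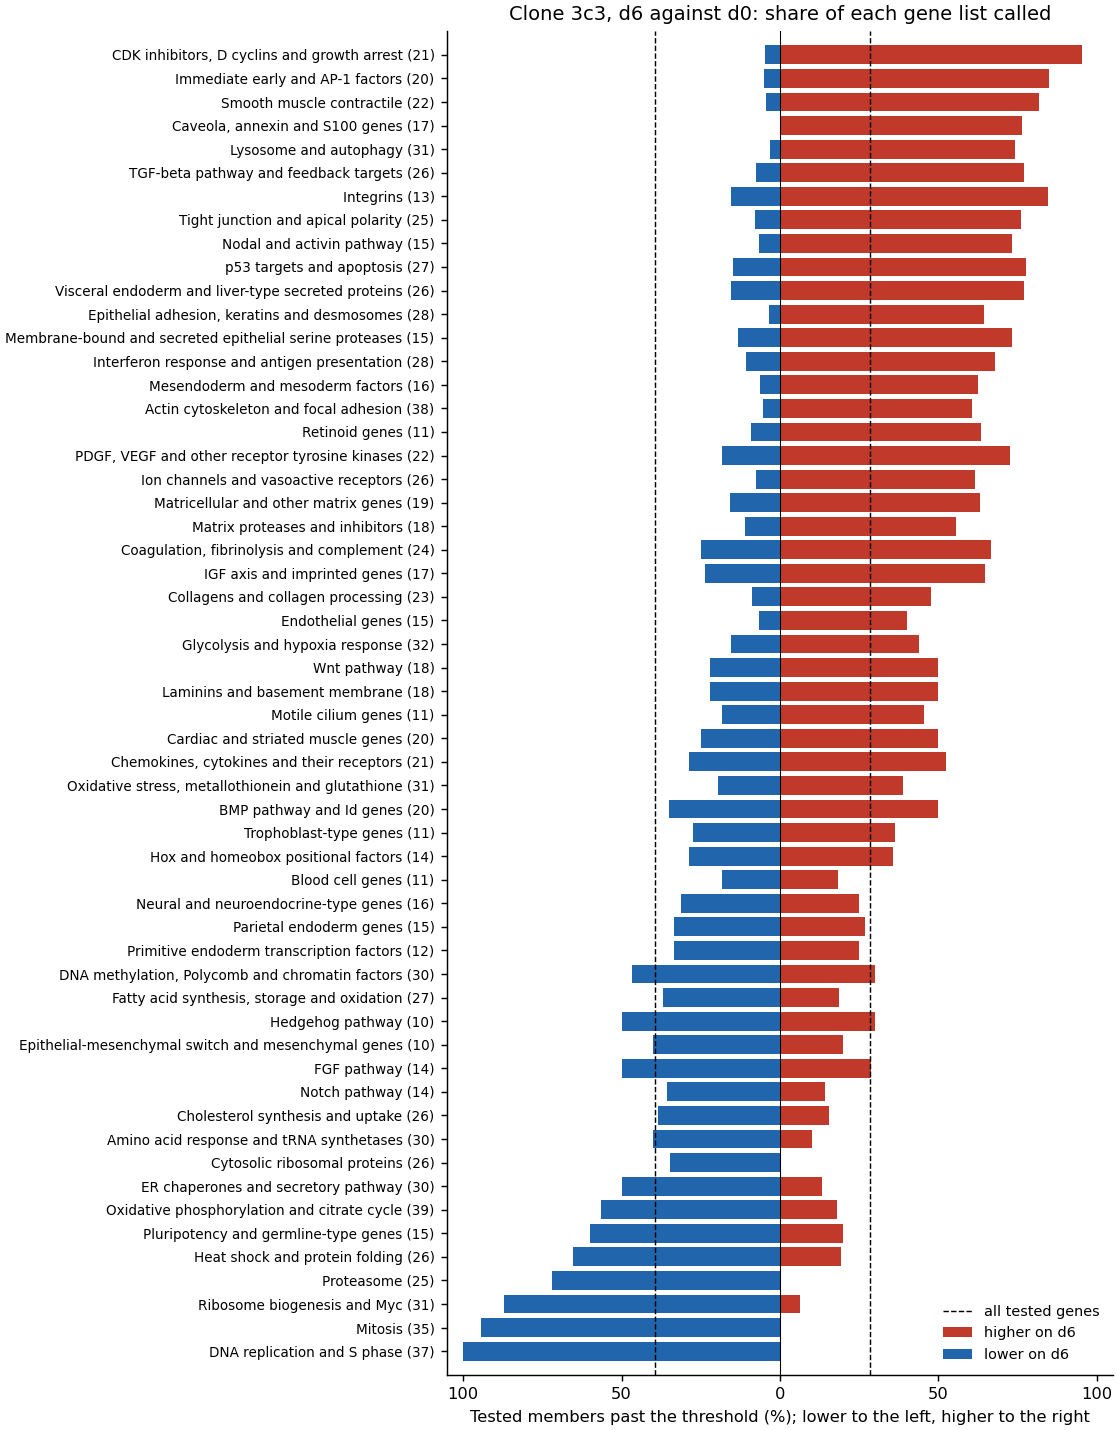
Percentage of the tested members of each gene list that were lower (blue, to the left) or higher (red, to the right) on d6, with the number tested in brackets. Dashed lines mark the 39.4% lower and 28.3% higher among all tested genes. All 37 tested DNA replication genes lie on the left. On the right lie 20 of the 21 tested CDK inhibitor, D cyclin and growth arrest genes.

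Transcripts of the cell division machinery were lower on d6. Of 38 listed genes of DNA replication and S phase 37 were tested and all of these fell, with a median change of −1.22 against −0.16 over all genes tested. Of 35 tested mitosis genes 33 fell and none rose, with a median of −1.59. *Rrm2*, the ribonucleotide reductase subunit that supplies DNA precursors in S phase, read 12.93, 12.86 and 12.98 on d0 and 10.85, 9.71 and 10.47 on d6 (−2.58 ± 0.27, adjusted p = 7.7e-05). *Ccne1*, the cyclin E that starts S phase, went from 13.30, 13.79 and 13.04 to 11.53, 10.34 and 10.56 (−2.57 ± 0.29, adjusted p = 0.00012). In both genes the highest d6 array lay below the lowest d0 array. Days were likewise apart, in either direction, for 63.9% of all tested genes. *Dut*, which keeps uracil out of DNA, fell from 13.44, 13.43 and 13.52 to 11.98, 10.88 and 11.35 (−2.06 ± 0.23, adjusted p = 9.4e-05). *Mki67*, which encodes the proliferation antigen Ki-67, fell from 7.61, 8.41 and 8.24 to 5.60, 5.40 and 5.63 (−2.54 ± 0.19, adjusted p = 1.4e-05). The lowest d6 values among these 4 genes were those of replicate 2 in each case. *Ccna2*, cyclin A, 11.61, 11.87 and 11.69 on d0 and 9.96, 8.93 and 9.75 on d6 (−2.18 ± 0.24, adjusted p = 9.5e-05), *Mybl2*, a transcription factor of mitotic genes, and *Ube2c*, which tags mitotic cyclins for destruction, fell too, by 2.06 and 2.0 on the log2 scale. The genes were still well above background on d6. *Hmmr* and *Cdc25b* were the 2 mitosis genes that did not pass, at −0.69 ± 0.28, adjusted p = 0.055 and −0.02 ± 0.16, adjusted p = 0.9.

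Promoters of mitosis genes are known for CCAAT boxes, which bind NF-Y, followed by a CHR element, where the MuvB complex binds, and promoters of S phase genes for E2F sites. RefSeq promoters (250 bases before the annotated start, rat assembly GRCr8) were found for 29 of the 35 tested mitosis genes, 30 of the 37 S phase genes and 9020 of all 11062 genes tested. The letters TTTGAA (CHR) on either strand were in 14 of the 29 mitosis promoters (48.3%), in 1 of the 30 S phase promoters (3.3%) and in 10.0% of all promoters. CCAAT on either strand was in 72.4% of the mitosis, 56.7% of the S phase and 35.9% of all promoters, and both motifs together were in 44.8%, 0.0% and 4.0%. One of the 3 E2F forms TTTCGCGC, TTTGGCGC and TTTCCCGC was in 20.0% of the S phase, 3.4% of the mitosis and 3.0% of all promoters. The following promoters of genes that fell show these letters, the first 4 with CHR and CCAAT in capitals and the last 2 with the E2F forms in capitals. In *Mki67* a CHR and a reversed CCAAT box overlap. A match describes the letters only, and binding was not measured. The positions, in GRCr8, are chr1:199952594-199952843 on the minus strand for *Mki67*, chr6:31431553-31431802 on the minus strand for *Cenpa* (a centromere histone, −1.86 ± 0.22, adjusted p = 0.00016), chr8:79981659-79981908 on the minus strand for *Ccnb2* (cyclin B2, −1.74 ± 0.22, adjusted p = 0.00021), chr10:103571896-103572145 on the plus strand for *Birc5* (survivin, −1.69 ± 0.26, adjusted p = 0.00064), chr19:13488563-13488812 on the plus strand for *Mcm5* (a replicative helicase subunit, −1.56 ± 0.19, adjusted p = 0.00018) and chrX:62342356-62342605 on the minus strand for *Pola1* (DNA polymerase α, −1.34 ± 0.15, adjusted p = 9.9e-05). These genes other than *Mki67* were chosen for their motifs after the values were seen.
Mki67: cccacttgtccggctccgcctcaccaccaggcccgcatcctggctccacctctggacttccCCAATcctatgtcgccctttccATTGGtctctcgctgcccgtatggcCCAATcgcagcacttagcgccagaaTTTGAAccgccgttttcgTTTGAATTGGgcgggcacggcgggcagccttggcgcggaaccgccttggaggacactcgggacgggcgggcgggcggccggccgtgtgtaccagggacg
Cenpa: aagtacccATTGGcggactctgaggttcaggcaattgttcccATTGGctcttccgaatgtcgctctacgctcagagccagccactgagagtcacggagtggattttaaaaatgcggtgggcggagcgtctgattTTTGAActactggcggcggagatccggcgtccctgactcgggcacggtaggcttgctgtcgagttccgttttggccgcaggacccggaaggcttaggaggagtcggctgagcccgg
Ccnb2: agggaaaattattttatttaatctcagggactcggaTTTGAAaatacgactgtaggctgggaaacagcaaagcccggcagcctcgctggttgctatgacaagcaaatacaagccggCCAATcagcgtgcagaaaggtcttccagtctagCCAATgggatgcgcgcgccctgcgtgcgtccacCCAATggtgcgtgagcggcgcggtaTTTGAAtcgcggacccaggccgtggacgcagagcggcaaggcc
Birc5: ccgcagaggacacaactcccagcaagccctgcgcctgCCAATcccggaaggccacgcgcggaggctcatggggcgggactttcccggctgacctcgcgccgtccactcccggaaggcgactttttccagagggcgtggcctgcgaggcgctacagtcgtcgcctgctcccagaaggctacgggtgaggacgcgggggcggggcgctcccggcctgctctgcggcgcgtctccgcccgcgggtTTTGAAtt
Mcm5: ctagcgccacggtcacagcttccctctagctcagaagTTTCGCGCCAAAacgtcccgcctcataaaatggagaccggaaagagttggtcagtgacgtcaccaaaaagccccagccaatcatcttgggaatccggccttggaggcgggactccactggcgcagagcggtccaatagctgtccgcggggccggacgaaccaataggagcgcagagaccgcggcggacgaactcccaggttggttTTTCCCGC
Pola1: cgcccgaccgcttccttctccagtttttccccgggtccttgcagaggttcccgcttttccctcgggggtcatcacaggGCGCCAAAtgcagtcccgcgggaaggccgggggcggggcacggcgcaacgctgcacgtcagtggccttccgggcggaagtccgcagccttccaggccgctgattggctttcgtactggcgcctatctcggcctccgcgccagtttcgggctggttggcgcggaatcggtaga

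The list of CDK inhibitors, D cyclins and growth arrest genes moved the other way. Of its 21 tested members 20 were higher and 1 lower (*Cdkn2c*, −1.43 ± 0.22, adjusted p = 0.00054). The count is thus not one of arrest genes alone. *Cdkn2b*, the TGF-β-inducible CDK inhibitor p15, rose from 3.40, 2.67 and 3.18 on d0 to 11.22, 9.69 and 10.07 on d6 (7.24 ± 0.20, adjusted p = 2.6e-07). *Cdkn2a*, the locus of p16 and p19Arf, rose from 6.79, 6.50 and 6.72 to 11.70, 10.05 and 10.81 (4.18 ± 0.28, adjusted p = 8.2e-06). *Ccng2*, a cyclin of arrested cells, rose from 4.11, 3.82 and 3.32 to 6.77, 7.14 and 6.87 (3.18 ± 0.26, adjusted p = 2.1e-05). No array of one day reached the other day in these 3 genes, which holds, in either direction, for 63.9% of all tested genes. Replicate 1 gave the highest d6 value of both CDK inhibitors. *Cdkn1a*, p21, which is named outside the rule, was at 10.72, 10.34 and 10.49 on d0 and 13.10, 12.35 and 12.55 on d6 (2.15 ± 0.13, adjusted p = 4.8e-06). Genes of the p53 response and apoptosis were higher in 21 of 27 tested members. Among them the pro-apoptotic *Bmf* was on no d0 array well above background (2.41, 2.52 and 0.56) and read 6.73, 7.20 and 6.47 on d6, or at least 17-fold more (adjusted p = 2.1e-05), and *Birc3*, an inhibitor of apoptosis, rose by 3.98 ± 0.25 (adjusted p = 5.6e-06), with 2 of 3 d0 arrays above background.

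Transcripts of ribosome biogenesis genes were lower as well. Those of cytosolic ribosomal proteins were lower in 9 of 26 tested genes (34.6%), and the other 17 did not pass. That share is below the 39.4% lower among all tested genes. Of 31 tested genes for ribosome assembly and the Myc family, 27 were lower and 2 higher, with a median of −1.24. *Mrto4*, an assembly factor of the large ribosomal subunit, went from 12.76, 12.71 and 12.57 to 11.05, 10.54 and 10.54 (−1.97 ± 0.13, adjusted p = 8.3e-06), and *Gar1*, which guides RNA modification, from 10.77, 11.40 and 11.25 to 9.34, 9.13 and 9.25 (−1.90 ± 0.18, adjusted p = 5.1e-05). The 2 that rose were no assembly factors. They were *Mycl* (2.28 ± 0.25, adjusted p = 9.1e-05) and *Mxi1* (2.16 ± 0.24, adjusted p = 9.5e-05), which encodes an antagonist of Myc. *Myc* itself was 10.39, 10.59 and 11.09 on d0 and 10.59, 10.47 and 10.88 on d6 (−0.04 ± 0.16, adjusted p = 0.82), with overlapping days. Proteasome subunits were lower in 18 of 25 tested genes (median −0.50), with *Psmd14*, the deubiquitinating subunit, changing most (−1.17 ± 0.18, adjusted p = 0.00062), but only 6 passed without replicate 3. Oxidative phosphorylation and citrate cycle genes were lower in 22 of 39 and higher in 7, and 13 were lower without replicate 3. Their changes were small, with a median of −0.33, as in *Ndufa9* of complex I (−0.97 ± 0.11, adjusted p = 0.00012). Chaperones of the endoplasmic reticulum were lower in 15 of 30 (8 without replicate 3). Cytosolic and mitochondrial chaperones were lower in 17 and higher in 5 of 26. Those higher include 2 small heat shock proteins. *Hspb1* rose from 8.79, 8.57 and 8.90 to 14.21, 13.94 and 14.03 (5.30 ± 0.17, adjusted p = 4.6e-07), and *Cryab*, αB-crystallin, an abundant protein of muscle, by 2.97 ± 0.23 (adjusted p = 1.5e-05). *Hspa1a*, the inducible Hsp70, also rose (4.14 ± 0.31, adjusted p = 1.5e-05).

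Among genes measured on all 6 arrays the largest rises were not those of muscle genes. Genes that the study's text names and genes with provisional symbols are left out of this ranking and those below. The heart muscle genes *Myl7* and *Nppa* were dim on d0 and so are not ranked here, but they also rose by large folds (below). The 12 that rose most encode a mixture of secreted factors, epithelial membrane proteins and plasma proteins. *Gas6*, a secreted ligand of the Axl receptor, led with 3.72, 3.69 and 3.60 on d0 and 12.35, 12.67 and 12.74 on d6 (8.92 ± 0.30, adjusted p = 5.8e-07). Its probe lies at chr16:80930560-80930619 of rn4, the assembly of the array's annotation. *Tmprss2*, a membrane-bound serine protease of epithelia, rose from 4.27, 3.92 and 4.31 to 12.69, 13.37 and 12.94 (8.84 ± 0.29, adjusted p = 5.5e-07; probe at chr11:37577194-37577253). On both genes the d6 arrays lay within 1 log2 unit of each other. *Nupr1*, a stress-induced chromatin protein, varied more, from 5.76, 4.56 and 4.48 to 11.39, 14.31 and 13.21 (8.03 ± 0.73, adjusted p = 3.7e-05). *Lgals2*, a galectin of gut epithelium, rose from 3.28, 4.01 and 3.63 to 11.79, 11.39 and 12.09 (8.12 ± 0.42, adjusted p = 2.4e-06). *Spon2*, a secreted matrix protein, rose from 4.54, 4.07 and 4.82 to 12.46, 12.10 and 12.63 (7.92 ± 0.19, adjusted p = 2.6e-07). None of these genes had a d0 array above 6. *Gkn2*, gastrokine 2, a secreted protein of the stomach lining, was already at 7.58, 7.48 and 7.54 on d0 and reached 14.44, 15.19 and 15.01 (7.34 ± 0.18, adjusted p = 2.6e-07). *Adm*, adrenomedullin, a vasodilator peptide, went from 7.47, 6.67 and 6.65 to 14.42, 14.33 and 14.22 (7.39 ± 0.25, adjusted p = 6.3e-07). These last 2 genes and *Areg* had the highest d6 means of the 12. With normexp, which adds an offset of 50 to every signal, changes of genes that were dim on one of the days came out smaller by construction, for instance 6.11 for *Gas6* and 6.36 for *Tmprss2*, with the direction kept. Over all tested probes of *Lgals2* the mean change was 6.13.

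**Figure D3:**
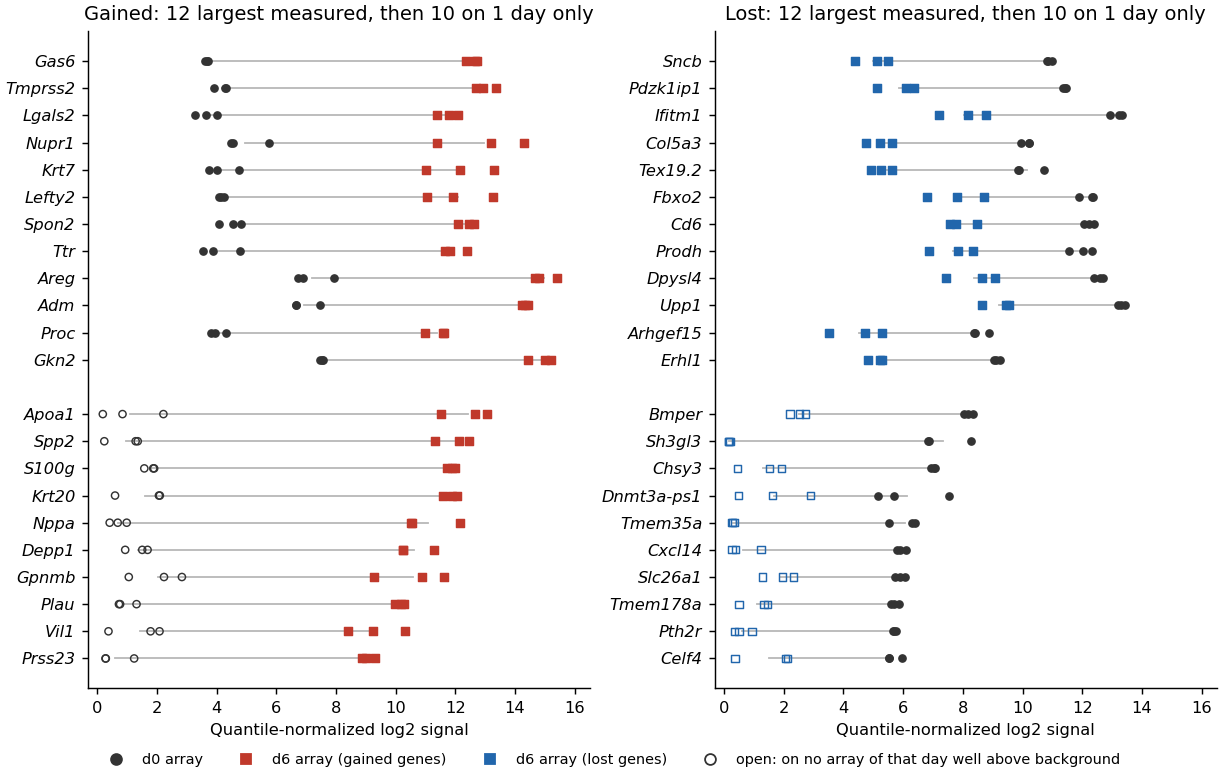
Quantile-normalized log2 signal (x axis) on each of the 3 d0 arrays (black circles) and 3 d6 arrays (squares) for the genes that were gained (left, red) and lost (right, blue) the most. The upper 12 genes of each panel were well above background on all 6 arrays, and the lower 10 on all arrays of 1 day and none of the other, whose values are drawn open. No gene shown has overlapping days, which the choice of the largest changes nearly fixed in advance.

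Another 183 genes (1.65% of those tested) were well above background on all 3 d6 arrays and no d0 array. For these only a bound on the fold can be given, the d6 mean against the lowest signal that counted as above background on the d0 arrays or the gene's own d0 signal where higher. Here and below, a gene that passed the filter only through its bright day could hardly fail to differ. The adjusted p of such a gene is no further support. *Apoa1*, the main protein of high-density lipoprotein, read 11.51, 12.66 and 13.05 on d6 and 0.85, 2.22 and 0.19 on d0, or at least 854-fold more (adjusted p = 2.2e-06). *Spp2*, a secreted phosphoprotein, read 11.33, 12.46 and 12.13 on d6 and no more than 1.36 on d0, or at least 632-fold more (adjusted p = 2.8e-06). *S100g*, a calcium-binding protein of gut and placenta, followed with 11.89, 11.72 and 11.98 on d6 and at least 586-fold (adjusted p = 2.6e-06). None of these 3 genes had a d0 signal over 2.22. *Krt20*, a keratin of gut epithelium, read 12.07, 11.59 and 11.88 on d6, or at least 580-fold more (adjusted p = 1.1e-06), and *Vil1*, villin, which bundles actin in microvilli, 10.30, 8.41 and 9.25, or at least 101-fold more (adjusted p = 4.2e-06). *Nppa*, the atrial natriuretic peptide, read 12.15, 10.51 and 10.54, or at least 338-fold more (adjusted p = 8.9e-07). *Gpnmb*, a lysosomal membrane glycoprotein, read 9.27, 11.63 and 10.89, or at least 223-fold more (adjusted p = 2.1e-05). The remaining 3 of the 10 largest were *Depp1* (at least 243-fold), *Plau* (at least 179-fold) and *Prss23* (at least 84-fold). With a less strict detection flag of the scanner software, 34 genes in place of 183 were detected on d6 only.

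Epithelial genes rose as a group. Of 25 tested tight junction and polarity genes 19 were higher and 2 lower (median 1.16), and of 28 tested genes for epithelial adhesion, keratins and desmosomes 18 were higher and 1 lower (median 1.16). *Krt7*, a keratin of simple epithelia, rose from 4.74, 3.76 and 4.02 to 13.29, 11.03 and 12.17 (7.99 ± 0.33, adjusted p = 1.1e-06), and *Krt19* from 10.26, 9.81 and 10.09 to 13.83, 14.44 and 14.54 (4.22 ± 0.19, adjusted p = 1.4e-06). *Cldn7* rose from 6.29, 7.36 and 8.02 to 12.71, 12.92 and 14.14 (6.03 ± 0.32, adjusted p = 2.7e-06), and *Cldn4* from 9.72, 8.86 and 9.29 to 14.04, 14.12 and 13.92 (4.74 ± 0.20, adjusted p = 1.1e-06). Both are claudins, the proteins that seal tight junctions. *Ocln*, occludin, rose with them (4.04 ± 0.18, adjusted p = 1.4e-06). *Cdh1*, E-cadherin, was high on d0 already (9.13, 9.62 and 9.66) and reached 13.33, 13.86 and 13.28 (4.02 ± 0.21, adjusted p = 2.6e-06), and *Dsp*, desmoplakin of the desmosome, which is named outside the rule, rose by 3.33 ± 0.19 (adjusted p = 3.7e-06). Keratins of stratified epithelia did not follow: *Krt5* and *Krt14* gave −0.15 ± 0.39, adjusted p = 0.75 and −0.20 ± 0.22, adjusted p = 0.45 and did not pass. Of 10 genes of the epithelial-mesenchymal switch, 2 were higher and 4 lower. The repressor *Zeb1*, 6.32, 6.49 and 6.28 on d0, fell to 3.42, 3.21 and 4.22 on d6, where 2 arrays were above background (−2.74 ± 0.22, adjusted p = 1.9e-05), and *Vim*, vimentin, outside the rule, fell by 0.70 on the log2 scale. *Pdpn*, podoplanin, rose (3.36 ± 0.18, adjusted p = 3.1e-06).

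Serine proteases of epithelial surfaces gave a median of 2.70 over 15 tested genes, 11 of them higher, or 7 where only genes above background on all 6 arrays are counted. *Plau*, the plasminogen activator urokinase, read 0.73, 0.77 and 1.32 on d0 and 10.29, 9.99 and 10.17 on d6, and *Plat*, the tissue-type activator, 3.10, 3.23 and 3.24 and 9.88, 9.64 and 9.80 (6.59 ± 0.17, adjusted p = 2.6e-07, above background on 2 d0 arrays). *Prss8*, prostasin, and *St14*, matriptase, an activating pair of proteases named outside the rule, rose by 3.41 ± 0.12 (adjusted p = 6.3e-07) and 2.70 ± 0.14 (adjusted p = 2.4e-06). The epithelial sodium channel, a target of prostasin, had 3 tested subunits, and all 3 rose. *Scnn1a* went from 5.34, 4.90 and 5.24 to 9.06, 9.67 and 9.13 (4.12 ± 0.22, adjusted p = 2.5e-06) and *Scnn1b* from 2.90, 2.50 and 2.60, with 1 array above background, to 7.37, 6.61 and 6.75, or at least 16.7-fold (adjusted p = 4.8e-06). *Scnn1g*, outside the rule, read 0.84, 0.76 and 0.76 on d0, where no array was above background, and 4.51, 4.69 and 4.45 on d6. The kallikreins *Klk6* and *Klk8* were the 2 list members that fell, by 5.44 and 2.68 on the log2 scale, with 2 d6 arrays above background each.

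Transcripts of basement membrane genes changed in both directions. Laminin chains of epithelia rose: *Lama5* from 6.07, 5.29 and 6.35 to 13.34, 12.22 and 12.59 (6.81 ± 0.20, adjusted p = 3.4e-07) and *Lama3* from not well above background to 5.36, 4.94 and 5.31, or at least 5.79-fold more. *Lama3* passed the filter only through d6, so that it could hardly fail to differ. The chains of the early embryonic laminin did not: *Lama1* and *Lamc1* fell (−0.97 ± 0.19, adjusted p = 0.0024 and −0.97 ± 0.15, adjusted p = 0.00052) and *Lamb1* did not pass (−0.16 ± 0.13, adjusted p = 0.31). The call for *Lama1* was lost in a fit over all 26 arrays and that for *Lamc1* without the replicate block (adjusted p = 0.15). Over the whole list 9 of 18 were higher and 4 lower. Integrins, the receptors of matrix, were higher in 11 of 13 tested genes. *Itgb4*, which binds laminin in hemidesmosomes, rose from 7.17, 6.35 and 7.22 to 13.36, 13.26 and 12.96 (6.28 ± 0.24, adjusted p = 9.0e-07), and *Itga9* from 6.17, 5.51 and 5.84 to 9.91, 10.57 and 10.56 (4.50 ± 0.25, adjusted p = 3.4e-06). The collagen receptor *Itga2* fell from 8.25, 8.15 and 8.26 to 5.57, 5.79 and 6.0 (−2.44 ± 0.12, adjusted p = 1.7e-06). Fibrillar collagens were unequal: *Col5a1* rose from 8.23, 8.28 and 8.61 to 12.87, 13.09 and 13 (4.62 ± 0.16, adjusted p = 6.5e-07), while *Col5a3* was 1 of the 12 largest falls, from 9.94, 10.20 and 10.22 to 5.24, 4.76 and 5.63 (−4.91 ± 0.19, adjusted p = 8.9e-07). *Col18a1*, a basement membrane collagen, rose from 8.20, 8.57 and 8.78 to 12.57, 12.77 and 12.95 (4.25 ± 0.12, adjusted p = 2.6e-07). *Gpc4*, a glypican, and *Ecm1* rose by 6.39 ± 0.19 (adjusted p = 3.6e-07) and 4.37 ± 0.12 (adjusted p = 2.6e-07), and *Fn1*, fibronectin, by 4.15 ± 0.24 (adjusted p = 3.7e-06). Of the genes named here, *Lamc1* and *Lamb1* were those with overlapping days.

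Secreted proteins of visceral endoderm and liver rose in 20 of 26 tested genes (median 2.49), and coagulation and complement genes in 16 of 24 (median 1.96). *Ttr*, transthyretin, the carrier of thyroid hormone and of the retinol-binding protein, rose from 4.78, 3.89 and 3.55 to 11.83, 11.66 and 12.40 (7.89 ± 0.51, adjusted p = 7.2e-06). *Afp*, α-fetoprotein, rose from 4.58, 4.42 and 3.85 to 9.86, 11.73 and 11.47 (6.74 ± 0.52, adjusted p = 1.7e-05). *Rbp4*, the retinol carrier, was not well above background on d0 and read 6.07, 6.46 and 6.98 on d6, or at least 14.2-fold more (adjusted p = 4.9e-06). Albumin (*Alb*), which fetal liver cells express, stayed not well above background on all 6 arrays, at 1.55 or less. *Proc*, protein C, an anticoagulant protease made by the liver, rose from 4.30, 3.94 and 3.82 to 10.98, 11.61 and 11.57 (7.36 ± 0.37, adjusted p = 2.2e-06). *Fgb*, the fibrinogen β chain, was not well above background on d0 and read 8.54, 8.76 and 9.61 on d6, or at least 78.9-fold more (adjusted p = 3.0e-06). *Fga*, the α chain, and *F2*, prothrombin, both outside the rule, rose by 3.96 ± 0.28 (adjusted p = 1.0e-05) and 3.63 ± 0.24 (adjusted p = 7.3e-06), whereas *Fgg*, the γ chain, gave −0.58 ± 0.19, adjusted p = 0.026, a call that was lost without normalization between arrays (adjusted p = 0.5). The uptake receptor of visceral endoderm went down, with *Cubn*, cubilin, at 12.64, 12.78 and 13.26 on d0 and 10.50, 10.81 and 11.19 on d6 and its partner *Amn* at 14.65, 15.05 and 15.51 and 13.90, 12.62 and 13.86 (−2.06 ± 0.19, adjusted p = 4.3e-05 and −1.61 ± 0.30, adjusted p = 0.0018). Most of the listed secreted proteins and this receptor thus differed in direction. Whether the same cells carry both was not tested.

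Transcription factors of endoderm changed less uniformly, with 3 higher (25%) and 4 lower (33.3%) of 12 tested, near the shares of all tested genes. *Foxa3*, a factor of gut and liver, was not well above background on d0 and read 7.25, 7.35 and 7.69 on d6, or at least 27.1-fold more (adjusted p = 1.4e-06). *Hhex* rose from 9.73, 9.77 and 9.95 to 12.81, 12.43 and 12.24 (2.68 ± 0.27, adjusted p = 6.6e-05). *Sox17* fell from 12.22, 11.83 and 12.25 to 10.59, 10.10 and 10.08 (−1.84 ± 0.17, adjusted p = 4.1e-05), and *Gata6* from 13.47, 13.38 and 13.70 to 12.06, 12.07 and 12.01 (−1.47 ± 0.13, adjusted p = 3.8e-05). Both stayed above 10 on every d6 array. *Hnf4a* gave 0.55 ± 0.24, adjusted p = 0.073, and *Foxa2* 0.50 ± 0.10, adjusted p = 0.0031, which shrank to 0.11 and was lost when arrays were scaled by their 75th percentile (adjusted p = 0.33). *Pdgfra*, a receptor for PDGF-BB and a marker of primitive endoderm, fell from 12.28, 12.34 and 12.12 to 10.67, 10.25 and 10.51 (−1.77 ± 0.15, adjusted p = 3.0e-05). *Pdgfrb*, the other receptor, was on no array of either day well above background (2.71 or less on d0 and 0.63 or less on d6).

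Ligands and feedback genes of the TGF-β family were higher on d6. Of 26 tested TGF-β pathway genes 20 were higher and 2 lower (median 1.21), and of 15 Nodal and activin genes 11 were higher and 1 lower (median 2.11). *Tgfb3*, a TGF-β ligand, was not well above background on d0 (1.74, 1.84 and 2.25) and read 8.83, 8.90 and 8.98 on d6, or at least 75.3-fold more (adjusted p = 2.6e-07). *Tgfb1*, the ligand that was added to the medium, rose as a transcript from 3.58, 4.09 and 4.28 to 9.64, 9.07 and 9.54 (5.44 ± 0.25, adjusted p = 1.5e-06). *Lefty2*, a secreted Nodal inhibitor, rose from 4.24, 4.16 and 4.09 to 13.26, 11.06 and 11.93 (7.92 ± 0.50, adjusted p = 6.1e-06), and *Nodal* itself from 5.12, 4.37 and 4.64 to 9.66, 8.09 and 9.07 (4.23 ± 0.23, adjusted p = 2.8e-06). The ligand and its inhibitor thus rose together. *Inhba*, the activin A subunit, was not well above background on d0 and read 5.77, 8.03 and 5.84 on d6, or at least 14.7-fold more (adjusted p = 1.3e-05). *Smad7*, an intracellular inhibitor, gave 1.55 ± 0.23, adjusted p = 0.00044, and the type I receptor *Tgfbr1* and *Smad2*, which carries its signal, were the 2 members that fell (−1.04 ± 0.37, adjusted p = 0.035 and −0.89 ± 0.08, adjusted p = 3.5e-05). The call for *Tgfbr1* was lost without replicate 2 (adjusted p = 0.19). *Bhlhe40*, a TGF-β-responsive repressor, rose from 6.78, 6.38 and 6.46 to 9.93, 11.16 and 10.93 (4.13 ± 0.34, adjusted p = 2.1e-05). BMP genes went both ways, with 10 higher and 7 lower of 20. *Bmp4* rose from 3.84, 3.54 and 3.34 to 8.27, 8.14 and 7.44 (4.38 ± 0.21, adjusted p = 2.0e-06) and *Bmp2* from 5.34, 6.10 and 6.21 to 9.25, 9.96 and 9.42 (3.66 ± 0.23, adjusted p = 6.6e-06), whereas the BMP targets *Id3* and *Id4* fell by 1.18 and 1.57 on the log2 scale and *Id2* rose (1.47 ± 0.26, adjusted p = 0.0012). *Bmper*, an extracellular BMP modulator, was lost. It read 8.35, 8.04 and 8.17 on d0 and 2.54, 2.21 and 2.73 on d6, where no array was above background, at least 36.7-fold lower. *Bmper* passed the filter only through d0, so that it could hardly fail to differ.

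Of 22 tested genes for PDGF, VEGF and other receptor tyrosine kinases and their ligands 16 were higher and 4 lower (median 1.73). *Areg*, amphiregulin, a ligand of the EGF receptor, rose from 7.93, 6.73 and 6.90 to 14.80, 15.41 and 14.67 (7.77 ± 0.35, adjusted p = 1.4e-06; probe at chr14:18466438-18466497). *Tgfa*, another ligand of that receptor, was not well above background on d0 and read 7.79, 6.65 and 6.34 on d6, or at least 18.9-fold more. *Tgfa* passed the filter only through d6, so that it could hardly fail to differ. *Pgf*, placental growth factor, rose from 3.74, 2.36 and 3.54, with 2 arrays above background, to 8.70, 8.72 and 8.84 (5.54 ± 0.38, adjusted p = 8.8e-06), and its receptor *Flt1* from 7.03, 6.37 and 6.33 to 10.13, 10.48 and 10.62 (3.83 ± 0.23, adjusted p = 4.5e-06). Genes induced within minutes of growth factor signalling were higher in 17 of 20, among them the MAP kinase phosphatases *Dusp6*, 5.90, 6.31 and 5.88 on d0 and 10.63, 11.44 and 10.18 on d6 (4.72 ± 0.30, adjusted p = 5.9e-06), and *Dusp1*, 8.67, 8.14 and 8.82 and 11.83, 12.66 and 11.89 (3.59 ± 0.33, adjusted p = 4.2e-05). The IGF axis held 11 higher and 4 lower of 17 tested genes. *Igfbp2*, an IGF-binding protein, rose from 5.44, 4.74 and 5.26 to 12.60, 10.10 and 11.53 (6.26 ± 0.37, adjusted p = 4.3e-06), and *Igfbp6* from 4.74, 3.86 and 3.88 to 9.54, 9.28 and 9.66 (5.34 ± 0.28, adjusted p = 2.4e-06). FGF receptors were lower in part: *Fgfr4* fell from 8.38, 8.56 and 8.71 to 6.89, 6.16 and 7.19 (−1.80 ± 0.22, adjusted p = 0.00015), while the ligand *Fgf8* rose from 4.44, 4.40 and 3.94 to 11.09, 9.20 and 10.12 (5.87 ± 0.37, adjusted p = 5.8e-06). *Ihh*, the hedgehog ligand of visceral endoderm and gut, fell from 11.44, 11.39 and 11.49 to 8.42, 7.91 and 8.44 (−3.18 ± 0.16, adjusted p = 2.4e-06). *Sfrp5*, a secreted Wnt inhibitor, rose from 3.12, 2.50 and 3.57, 2 arrays above background, to 11.62, 9.93 and 11.32 (7.90 ± 0.32, adjusted p = 9.9e-07; 6.48 as the mean over its tested probes), and the ligand *Wnt7b* fell from 7.74, 7.67 and 7.86 to 4.96, 3.92 and 3.04, again 2 arrays above background (−3.78 ± 0.36, adjusted p = 4.5e-05). Other Wnt ligands went up, with *Wnt5b* going from 2.76, 2.59 and 3.18 to 8.72, 6.20 and 6.82 (4.41 ± 0.43, adjusted p = 5.5e-05), and the Wnt inhibitor *Dkk1*, outside the rule, went from 12.01, 12.31 and 12.42 to 10.46, 9.60 and 10.36 (−2.11 ± 0.21, adjusted p = 5.9e-05). In all 9 of 18 tested Wnt genes were higher and 4 lower. For FGF genes the counts were 4 higher and 7 lower of 14 (4 lower without replicate 3), for hedgehog genes 3 and 5 of 10 (2 lower without replicate 2), and for Notch genes 2 and 5 of 14.

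Smooth muscle genes rose in 18 of 22 tested members, with 1 lower (median 1.62). *Tagln* went from 8.95, 8.61 and 8.93 to 15.24, 14.59 and 14.50 (5.95 ± 0.24, adjusted p = 9.9e-07), and *Tpm2*, β-tropomyosin, from 9.33, 8.0 and 8.29 to 15.49, 13.71 and 14.23 (5.93 ± 0.33, adjusted p = 3.4e-06). The signal summed over 8 smooth muscle markers was 10.54 to 10.75 in log2 on d0 and 14.83 to 15.49 on d6, on d6 most of it *Tagln*. Other markers above background on every array of both days rose as well. *Cnn1* rose by 2.67 ± 0.17 (adjusted p = 6.8e-06) and *Smtn* by 2.38 ± 0.15 (adjusted p = 6.6e-06). *Des* rose by 2.32 ± 0.35 (adjusted p = 0.00049) and *Actg2* by 1.64 ± 0.13 (adjusted p = 1.6e-05). Some markers were dim. *Lmod1*, leiomodin 1, read 0.78, 0.27 and 0.30 on d0, where no array was above background. On d6 it read 5.21, 4.12 and 4.05, with 2 arrays above background. *Myocd*, myocardin, read 1.26, 1.71 and 0.84 on d6. *Synpo2* was not tested, and *Myh11* was not analysed here. Focal adhesion genes followed, with 23 of 38 higher and 2 lower. *Tns1*, tensin, rose from 3.76, 3.17 and 4.08 to 9.67, 9.49 and 9.15 (5.77 ± 0.24, adjusted p = 1.1e-06; 8.04 as the mean over its tested probes).

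Genes of heart muscle were among the largest changes in single members, though the list was mixed, with 10 higher and 5 lower of 20. *Myl7*, the atrial myosin light chain, rose from 1.28, 2.61 and 1.71, with 1 array above background, to 13.79, 12.92 and 13.30, or at least 1551-fold (adjusted p = 4.6e-07). *Nppa* is described above, and *Acta1*, skeletal α-actin, outside the rule, rose from 9.52, 9.38 and 9.23 to 13.06, 13.27 and 12.95 (3.72 ± 0.14, adjusted p = 8.9e-07). The ventricular *Myl2* was not well above background on d0 and read 6.97, 4.86 and 5.69 on d6, or at least 8.99-fold more (adjusted p = 2.3e-05). *Lmod2*, leiomodin 2, went the other way, from 7.92, 7.77 and 7.74 to 3.46, 3.26 and 2.99, with 2 d6 arrays above background (−4.57 ± 0.37, adjusted p = 2.2e-05). *Myh6*, the atrial myosin heavy chain, gave 7.74, 6.68 and 6.79 on d0 and 8.29, 6.66 and 6.84 on d6 and did not pass (0.19 ± 0.37, adjusted p = 0.67). All 3 skeletal muscle markers, *Myod1*, *Myog* and *Ckm*, stayed not well above background on both days. Of 16 tested mesendoderm factors 10 were higher and 1 lower, or 6 higher where all 6 arrays had to be above background. *Eya2*, a transcriptional coactivator of mesoderm, rose from 2.93, 1.76 and 2.39, with 1 array above background, to 8.15, 6.11 and 7.64, or at least 22.3-fold (adjusted p = 1.7e-06), and *Eomes*, outside the rule, from 3.60, 3.93 and 3.83 to 7.72, 5.61 and 6.79 (2.92 ± 0.41, adjusted p = 0.00034).

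Lysosome and autophagy genes were higher in 23 of 31 tested members and lower in 1 (median 0.91). *Ctsf*, cathepsin F, rose from 8.36, 8.38 and 8.46 to 10.80, 11.92 and 11.68 (3.07 ± 0.22, adjusted p = 1.2e-05), *Gaa*, the acid glucosidase, from 9.19, 8.93 and 9.22 to 11.50, 11.80 and 12.10 (2.68 ± 0.18, adjusted p = 8.9e-06), and *Ulk1*, the kinase that starts autophagy, from 5.14, 4.87 and 4.95 to 7.0, 7.34 and 7.18 (2.19 ± 0.21, adjusted p = 4.9e-05). *Ctsb*, cathepsin B, outside the rule, was bright on both days and rose from 14.71, 14.90 and 14.86 to 16.57, 16.77 and 16.67 (1.85 ± 0.09, adjusted p = 2.2e-06). Annexin, caveola and S100 genes were higher in 13 of 17 and lower in none. *Anxa1*, annexin A1, rose from 8.19, 7.49 and 7.37 to 12.31, 13.74 and 12.91 (5.30 ± 0.36, adjusted p = 8.3e-06). Receptors and channels rose in 16 of 26, with *Kcnk2*, a stretch-gated potassium channel, going from 4.38, 3.68 and 3.61 to 9.98, 9.56 and 9.14 (5.67 ± 0.22, adjusted p = 9.3e-07).

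Lipid lists were lower in a share near that of all genes. Fatty acid genes were lower in 10 (37%) and higher in 5 (18.5%) of 27, and cholesterol synthesis and uptake genes lower in 10 (38.5%) and higher in 4 of 26, or lower in 3 without replicate 3. Of the fatty acid genes 4 were lower without replicate 3 and 6 without replicate 2. *Acaca*, acetyl-CoA carboxylase, fell from 12.87, 12.72 and 12.97 to 11.34, 10.55 and 11.06 (−1.87 ± 0.12, adjusted p = 7.3e-06), and *Fasn*, fatty acid synthase, outside the rule, from 14.23, 13.92 and 14.22 to 12.79, 12.02 and 12.23 (−1.78 ± 0.12, adjusted p = 8.7e-06). *Plin2*, a lipid droplet coat, rose from 8.92, 9.29 and 8.78 to 10.73, 11.43 and 10.81 (2.0 ± 0.10, adjusted p = 2.5e-06), and *Cpt1a*, which lets fatty acids into mitochondria, from 5.72, 5.66 and 5.91 to 7.43, 7.78 and 7.44 (1.79 ± 0.24, adjusted p = 0.00031). The cholesterol exporter *Abcg1* rose from 6.72, 6.62 and 6.85 to 10.31, 10.15 and 9.97 (3.41 ± 0.18, adjusted p = 2.5e-06). Glycolysis and hypoxia genes were higher in 14 of 32 (8 without replicate 3), of which *Eno2*, an enolase, changed most after *Adm*, from 6.85, 6.56 and 6.70 to 10.79, 11.95 and 12.10 (4.91 ± 0.36, adjusted p = 1.3e-05). *Psat1*, of serine synthesis, fell from 8.73, 8.03 and 8.25 to 6.16, 5.78 and 6.16 (−2.30 ± 0.32, adjusted p = 0.00032).

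The 12 largest falls among genes measured on all 6 arrays are varied in function. *Sncb*, β-synuclein of neurons, fell the most of these, from 11, 10.82 and 10.86 to 5.11, 4.39 and 5.49 (−5.90 ± 0.24, adjusted p = 1.0e-06; probe at chr17:15908423-15911560). *Pdzk1ip1*, a small membrane protein of epithelia, fell from 11.34, 11.45 and 11.42 to 6.35, 5.12 and 6.11 (−5.54 ± 0.35, adjusted p = 5.8e-06). *Ifitm1*, an interferon-induced membrane protein of early germ cells, fell from 13.33, 13.23 and 12.93 to 8.77, 7.19 and 8.16 (−5.13 ± 0.29, adjusted p = 3.7e-06; probe at chr1:201155335-201155394). It was the brightest on d0 of these 3. *Tex19.2*, a gene of germ cells and pluripotent cells, fell from 10.73, 9.89 and 9.86 to 5.64, 5.26 and 4.92 (−4.88 ± 0.24, adjusted p = 2.0e-06), *Fbxo2*, a ubiquitin ligase subunit for glycoproteins, from 12.37, 12.31 and 11.90 to 8.70, 6.80 and 7.80 (−4.43 ± 0.32, adjusted p = 1.3e-05), and *Cd6*, a scavenger receptor of T cells, from 12.41, 12.05 and 12.23 to 7.77, 7.56 and 8.48 (−4.30 ± 0.53, adjusted p = 0.00018). *Prodh*, which breaks down proline, fell from 12.31, 11.55 and 12.01 to 8.35, 6.87 and 7.83 (−4.27 ± 0.24, adjusted p = 3.2e-06), and *Upp1*, uridine phosphorylase, from 13.19, 13.43 and 13.31 to 9.54, 8.64 and 9.44 (−4.10 ± 0.23, adjusted p = 3.7e-06). The other 3 of the 12, *Dpysl4*, *Arhgef15* and *Erhl1*, fell by 4.17, 4.03 and 4.02 on the log2 scale. In none of the 12 did a d6 array reach a d0 array, which their choice as the largest falls nearly fixed in advance. Days were also apart, in either direction, for 63.9% of all tested genes. The spread on d6 was wider than on d0 in genes such as *Fbxo2*.

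*Tfap2e*, a transcription factor of the AP-2 family, named after its values were seen, fell from 11.22, 11.06 and 11.05 to 4.04, 3.47 and 3.66 (−7.38 ± 0.19, adjusted p = 2.6e-07), with 2 d6 arrays above background. *Stmn2*, a microtubule regulator of growing neurons, fell from 9.17, 9.74 and 9.02 to 2.80, 3.11 and 3.38, again with 2 d6 arrays above background (−6.21 ± 0.37, adjusted p = 4.5e-06). Neural genes as a list were lower in 5 (31.2%) and higher in 4 (25%) of 16, near the shares of all tested genes. Detected on d0 alone were 85 genes (0.768%), 176 without replicate 1 and 7 with the less strict detection flag. After *Bmper*, *Sh3gl3*, an endophilin of synapses, had the largest bound, with 6.82, 8.29 and 6.85 on d0 and at least 22.4-fold less on d6. Both passed the filter only through d0, so that they could hardly fail to differ. *Chsy3*, a chondroitin synthase, read 7.06, 6.95 and 7.04 on d0 and was at least 18.2-fold lower (adjusted p = 5.5e-06). *Cxcl14*, a chemokine of epithelia, read 5.81, 5.90 and 6.10 on d0 and was at least 8.58-fold lower (adjusted p = 9.4e-05). The others of the 10 were *Dnmt3a-ps1* (9.81-fold), *Tmem35a* (9.45-fold), *Slc26a1*, a sulfate transporter (8.06-fold), *Tmem178a* (7.38-fold), *Pth2r*, a parathyroid hormone receptor (7.28-fold), and *Celf4*, an RNA-binding protein of neurons (7.13-fold), each value being the least fold that the d6 background allows. *Dnmt3a-ps1* is annotated as a pseudogene copy of *Dnmt3a*, so that its probe may also read that gene, which fell from 6.96, 7.32 and 7.48 to 5.69, 4.23 and 4.96 (−2.30 ± 0.36, adjusted p = 0.0007).

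Pluripotency genes were lower in 9 and higher in 3 of 15 tested. *Tfcp2l1*, a factor of naive pluripotent cells, fell from 5.70, 6.46 and 5.92 to 2.11, 2.75 and 0.62, with 1 d6 array above background, or at least 7.82-fold (adjusted p = 8.2e-05), and *Dppa3*, of germ cells and preimplantation embryos, from 9.18, 8.63 and 8.64 to 4.84, 4.78 and 4.39, with 2 (−4.15 ± 0.19, adjusted p = 1.4e-06). *Pou5f1*, which encodes Oct4, read 11.47, 11.63 and 11.49 on d0 and 6.82, 7.49 and 7.97 on d6. It was the 1 of 3 analysed pluripotency markers that was above background on all d0 arrays, while *Esrrb* was on no array well above background and *Sox2* rose from not well above background on d0 to 4.98, 4.01 and 4.64. Chromatin factors were lower in 14 (46.7%) and higher in 9 (30%) of 30, near the 39.4% and 28.3% of all tested genes. *Tet2*, which oxidizes methylated DNA, fell from 7.40, 6.80 and 7.16 to 3.68, 4.10 and 3.86, with 2 d6 arrays above background (−3.24 ± 0.37, adjusted p = 0.00011), while *Cbx7*, of Polycomb, rose from 3.27, 4.79 and 4.13 to 7.47, 7.12 and 6.64 (3.01 ± 0.39, adjusted p = 0.00022).

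Lists for body position, placenta and cilia went both ways, with 5 higher and 4 lower of 14 homeobox genes, 4 and 3 of 11 trophoblast genes and 5 and 2 of 11 motile cilium genes, and held single large changes. *Otx2*, a homeobox gene of forebrain and visceral endoderm, rose from 6.04, 5.64 and 6.0 to 12.03, 10.07 and 10.60 (5.0 ± 0.29, adjusted p = 3.7e-06), while *Meis2*, a cofactor of Hox proteins, fell from 6.62, 7.12 and 6.86 to 4.12, 3.33 and 1.81, with 2 d6 arrays above background (−3.78 ± 0.40, adjusted p = 8.4e-05). *Foxj1*, the factor that turns on motile cilia, rose from 3.61, 3.38 and 3.55 to 11.08, 8.59 and 10.14 (6.43 ± 0.40, adjusted p = 5.9e-06), and so did *Tppp3*, a tubulin-binding protein, from 7.40, 6.45 and 6.59 to 11.95, 12.41 and 12.27 (5.40 ± 0.25, adjusted p = 1.7e-06), *Rsph9*, of the radial spokes (1.57 ± 0.14, adjusted p = 2.9e-05), and *Zmynd10*, which helps assemble ciliary motors (1.17 ± 0.22, adjusted p = 0.0017). *Tekt1*, a protein of the axoneme, gave −0.44 ± 0.21, adjusted p = 0.099 and did not pass. *Rsph1*, a further marker of ciliated cells, was lower (−0.48 ± 0.16, adjusted p = 0.025), with overlapping days. *Dnai1* of the ciliary motor read 0.26, 0.95 and 0.34 on d0 and 4.72, 3.32 and 3.60 on d6, where 2 arrays were above background, and was not tested. Retinoid genes were higher in 7 and lower in 1 of 11. *Dhrs3*, which turns retinal back into retinol, rose from 6.45, 6.24 and 6.37 to 8.95, 10.11 and 10.21 (3.41 ± 0.38, adjusted p = 0.0001), and *Cyp26a1*, which breaks retinoic acid down, outside the rule, by 2.51 ± 0.42 (adjusted p = 0.00088). The one that fell was *Stra6*, the cellular receptor for retinol uptake, from 7.36, 7.13 and 7.12 to 4.57, 4.19 and 4.75 (−2.70 ± 0.19, adjusted p = 9.7e-06).

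Chemokine and cytokine genes were higher in 11 and lower in 6 of 21, or 5 higher where all 6 arrays had to be above background. *Cxcl1*, a neutrophil chemokine, was not well above background on d0 and read 6.89, 6.94 and 5.97 on d6, or at least 15.2-fold more (adjusted p = 4.2e-06), and *Il18*, of the interleukin 1 family, 6.98, 6.35 and 6.44 on d6, or at least 15.2-fold more (adjusted p = 4.0e-06). *Cxcr4*, a receptor of migrating cells, rose from 2.73, 1.67 and 3.31, with 2 arrays above background, to 7.98, 6.87 and 7.72 (4.95 ± 0.63, adjusted p = 0.00021). Of LIF signalling, 2 genes are named after their values were seen. *Lifr*, the LIF receptor, fell from 8.50, 8.67 and 8.57 to 5.69, 5.80 and 6.16 (−2.70 ± 0.15, adjusted p = 3.0e-06), and *Socs3*, a feedback inhibitor induced by it, from 9.78, 9.67 and 9.77 to 6.82, 6.50 and 6.83 (−3.03 ± 0.15, adjusted p = 2.3e-06).

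Interferon-response and antigen presentation genes were higher in 19 and lower in 3 of 28 tested members (median 1.39). *Rsad2*, viperin, an antiviral enzyme, rose from 4.43, 4.03 and 4.30 to 9.43, 8.40 and 9.66 (4.91 ± 0.28, adjusted p = 4.0e-06), *Bst2*, tetherin, from 3.65, 4.77 and 5.85 to 9.25, 9.01 and 11.17 (5.05 ± 0.37, adjusted p = 1.2e-05), and *Ifi27* from 6.87, 6.49 and 6.64 to 10.79, 10.78 and 10.64 (4.07 ± 0.17, adjusted p = 1.1e-06). *Tap2*, of the peptide transporter, and *B2m*, β2-microglobulin of class I molecules, both named after their values were seen, rose by 2.97 ± 0.19 (adjusted p = 5.8e-06) and 1.11 ± 0.10 (adjusted p = 4.1e-05). Of 5 blood cell markers *Ptprc*, *Spi1* and *Hbb* were on no array well above background on either day, and the summed signal of the 5 was 6.73 to 7.14 on d0 and 6.91 to 7.31 on d6. *Csf1r*, a receptor of macrophages and trophoblast, nevertheless rose from 4.15, 3.68 and 3.97 to 9.18, 10.81 and 10.52 (6.24 ± 0.37, adjusted p = 4.4e-06).

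The marker lists for other cell types give the background for these changes. The summed signal of the 6 epithelial markers was 17.07 to 17.16 in log2 on d0 and 17.82 to 17.86 on d6, most of it *Krt18* (16.97, 16.96 and 17.06 on d0 and 17.37, 17.36 and 17.41 on d6). The 8 primitive endoderm markers were at 15.48 to 15.59 on d0 and 15.05 to 15.13 on d6, and all 8 were above background on both days. The 6 fibroblast markers were at 6.24 to 6.93 on d0 and 8.42 to 10.80 on d6, on d6 nearly all of it the signal of *Col1a1* (6.16, 5.51 and 6.35 on d0 and 10.78, 8.33 and 9.49 on d6), with *Thy1* and *Prrx1* at 1.16 or less. The 4 endothelial markers were at 6.86 to 7.02 and 6.82 to 7.13, a sum that hides opposite changes. *Pecam1* fell (−2.11 ± 0.60, adjusted p = 0.014, with 2 d6 arrays above background) and *Tie1* rose (1.54 ± 0.16, adjusted p = 6.9e-05). *Cdh5* and *Tek* did not pass. The 4 markers of ciliated cells were at 7.32 to 7.55 on d0 and 8.92 to 11.20 on d6, led by *Foxj1*. The part of changing cell types in the results above was not tested.

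Levels on d2 and d4 place single genes within the course. They are given as mean ± SD of 3 arrays in the order of d0, d2, d4 and d6. *Lgals2* was near its d6 level on d2 (3.64 ± 0.36, 12.15 ± 0.21, 10 ± 1.05 and 11.76 ± 0.35). *Ifitm1* (13.17 ± 0.21, 8.10 ± 0.09, 7.79 ± 0.57 and 8.04 ± 0.80), *Prodh* (11.96 ± 0.39, 7.83 ± 0.14, 7.33 ± 0.35 and 7.68 ± 0.75) and *Bmper* (8.19 ± 0.15, 2.50 ± 0.44, 3.01 ± 0.80 and 2.50 ± 0.26) had reached their d6 level on d2. *Nupr1* stayed near its d0 level on d2 and went through 4.94 ± 0.72, 5.78 ± 0.44, 8.87 ± 0.86 and 12.97 ± 1.47. *Sncb* fell step by step (10.89 ± 0.10, 8.23 ± 0.05, 6.36 ± 0.56 and 4.99 ± 0.56), as *Krt7* rose (4.17 ± 0.51, 6.35 ± 0.44, 9.38 ± 1.07 and 12.17 ± 1.13). *Cdkn2b* had means of 3.08 ± 0.38, 5.37 ± 0.61, 7.35 ± 0.75 and 10.33 ± 0.80, and *Mki67* of 8.09 ± 0.42, 7.68 ± 0.37, 7.23 ± 0.20 and 5.54 ± 0.13, so that both had their largest step between d4 and d6. *Gas6* and *Eno2* were highest on d4, at 13.44 ± 0.37 and 12.88 ± 1.03, against 12.59 ± 0.21 and 11.61 ± 0.72 on d6. Neighbouring days whose means ± SD overlap, such as d4 and d6 of *Eno2*, are not told apart by these arrays. The values of d2 and d4 were not tested against d0 here.

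**Figure D4:**
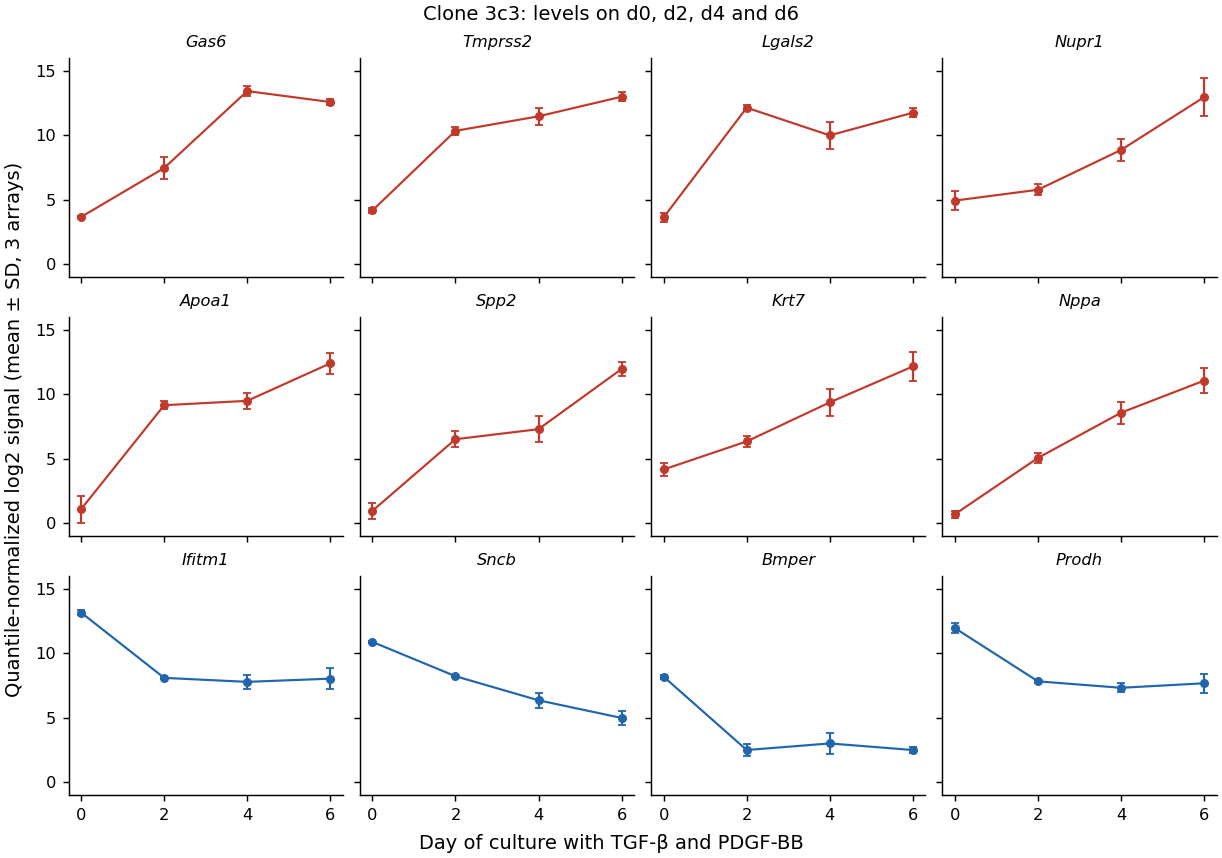
Quantile-normalized log2 signal (y axis, mean ± SD of 3 arrays) on d0, d2, d4 and d6 (x axis, days in culture) for 8 genes that were higher (red) and 4 that were lower on d6 (blue). *Lgals2*, *Ifitm1*, *Bmper* and *Prodh* were near their d6 level on d2, whereas *Nupr1* rose after d2. *Apoa1*, *Spp2* and *Nppa* on d0 and *Bmper* on d6 were on no array well above background.

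The 2 arrays of primary SMC or, per the labels, aortic RNA give levels of the gained genes in another source. The study gives cultured rat aortic SMCs as the source of this RNA, and the labels differ from that. The arrays lie on a slide of their own, so that sample and slide cannot be told apart, and no test was made. *Gas6* (mean 14.71), *Nupr1* (15.10), *Depp1* (12.46), *Prss23* (12.36) and *Tpm2* (17.46) were bright on them. *Tmprss2* (1.19), *Ttr* (1.01), *Gkn2* (1.17), *Krt20* (2.25), *Cldn7* (1.45), *Apoa1* (1.96) and *Myl7* (1.38) were not well above background on either of the 2 arrays, although they were at 11 or higher on d6 in 3c3.

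The other line serves to show where 3c3 differed. Among the 11062 genes tested in 3c3, 7492 were called in 3c3 and 7451 in Cl19. Of these genes 5353 were called in the same direction in both lines, which is 71.4% of the 3c3 and 71.8% of the Cl19 calls. Genes that passed the filter on dim probes only in Cl19 are not in these counts. The change itself differed between the lines for 3280 genes (29.7% of those tested, limma, adjusted p below 0.05). Each line lay on slides of its own, and the donors differed in age, so that line, donor and slide cannot be told apart. The array labelled Cl19 d2 replicate 1 lay nearer to the d2 arrays of 3c3 (root mean square difference 0.288 to 0.479 log2 units) than to those of Cl19 (0.791 and 0.836), and without it 6504 in place of 6032 probes differed between the lines (25.4% of 23708). Few cell division genes differed, 2 of 37 for S phase and 3 of 35 for mitosis. Interferon and antigen presentation genes stood at the other end, with a difference for 21 of 28 tested members and a median change of 1.39 in 3c3 and −0.85 in Cl19. *Psmb8*, an immunoproteasome subunit, read 5.65, 5.95 and 5.95 on d0 and 8.79, 8.06 and 8.67 on d6 in 3c3 (2.66 ± 0.24, adjusted p = 3.4e-05), and means of 8.08 and 4.61 in Cl19, a difference of 6.13, adjusted p = 4.8e-07. *Rsad2* had means of 6.20 and 5.63 in Cl19 and differed by 5.47, adjusted p = 8.5e-06. *Ifitm1* fell in both lines and did not differ past the threshold (−0.05, adjusted p = 0.96).

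Among the largest rises of 3c3, some were shared in size and some were not. *Gas6* (0.40, adjusted p = 0.64), *Tmprss2* (0.41, adjusted p = 0.74) and *Spon2* (−0.81, adjusted p = 0.26) did not differ past the threshold. *Lgals2* changed by 1.04 log2 units in Cl19, from a d0 mean of 7.20, which was not past the threshold (difference 7.08, adjusted p = 1.8e-05). *Gkn2*, 9.19 and 11.01 in Cl19, differed by 5.52, adjusted p = 6.4e-07, *Areg* by 4.33, adjusted p = 0.0002 and *Csf1r* by 5.20, adjusted p = 8.7e-05. *Plvap*, of fenestrated endothelium, rose in 3c3 from 3.10, 2.52 and 0.98, with 1 array above background, to 9.51, 9.71 and 9.98, or at least 112-fold (adjusted p = 1.3e-05), and differed by 6.03, adjusted p = 1.8e-05. *Lefty2* rose less in 3c3 than in Cl19 (difference −4.51, adjusted p = 0.036). Some genes that fell in both lines fell further in Cl19. *Dpysl4* ended at 2.82 in Cl19, with 2 arrays above background, and differed by 5.62, adjusted p = 0.00018, and *Pou5f1* ended at 1.13, with 1 array above background, and differed by 5.04, adjusted p = 0.0035. Endoderm genes such as *Sox17* (7.88 on d6 in Cl19, difference 2.28, adjusted p = 0.00082) and *Ihh* (5.84, difference 3.62, adjusted p = 0.00012) did likewise.

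Opposite calls in the 2 lines were made for 453 genes. For 451 of these the difference passed, an outcome that opposite calls nearly fix in advance and that adds no further evidence. The genes with the largest differences, named after their values were seen, include *Aqp8*, a water channel of gut and liver, which rose in 3c3 from 7.71, 7.34 and 7.11 to 9.99, 10.14 and 10.96 (2.97 ± 0.30, adjusted p = 6.0e-05) and fell in Cl19 from a mean of 11.79 to 6.12 (difference 8.64, adjusted p = 1.0e-05). *Svs4*, a seminal vesicle protein, rose from 9.01, 8.09 and 7.95 to 11.67, 13.73 and 13.17 (4.51 ± 0.51, adjusted p = 0.00011), against 8.32 and 4.61 in Cl19 (difference 8.22, adjusted p = 0.00011). *Tesc*, a calcium-binding protein, rose from 8.09, 8.12 and 8.56 to 12.37, 12.30 and 12.51 (4.14 ± 0.18, adjusted p = 1.4e-06), against 10.65 and 7.75 (difference 7.03, adjusted p = 9.4e-08). *Sik1*, a salt-inducible kinase, fell from 9.77, 9.33 and 9.33 to 8.43, 7.31 and 7.52 (−1.73 ± 0.17, adjusted p = 4.9e-05), against 6.99 and 11.55 (difference −6.29, adjusted p = 9.4e-08). The d0 levels of *Aqp8*, *Tesc* and *Sik1* differed between the lines by more than 2 log2 units as well.

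**Figure D5:**
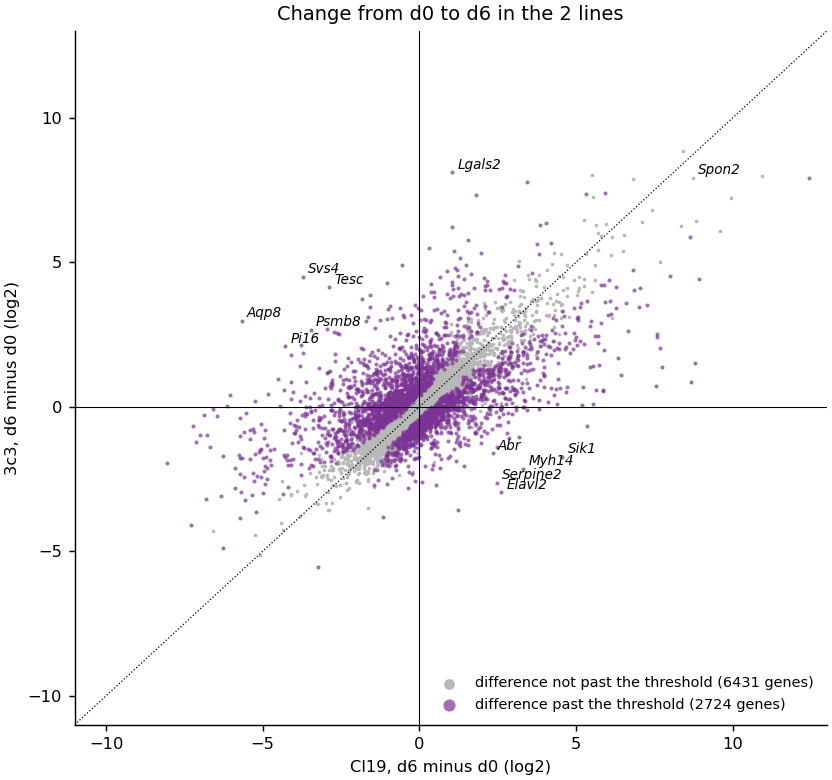
Change from d0 to d6 in 3c3 (y axis, log2) against that in Cl19 (x axis, log2) for the 9155 genes that all 12 arrays of the 2 days and 2 lines measured above background. Purple points are the 2724 genes whose change differed between the lines past the threshold, grey points the other 6431, and the dotted line marks equal change. *Aqp8*, *Svs4* and *Tesc* lie in the upper left and *Sik1* in the lower right.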

How the data were processed

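RNA of 26 samples was read on Agilent 4x44K rat arrays in 1 colour. The authors extracted background-corrected intensity values with Agilent Feature Extraction (version 10.1.1.1 per the submitters' processing notes) and deposited them with detection flags. The deposited log2 table of the series was equal to log2 of these signals to 5.2e-14 and was used for the fit without normalization between arrays.

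Signals were log2-transformed, quantile-normalized over 26 arrays and then averaged over spots of a probe. No feature was saturated, and no replicate arrays were duplicates (root mean square difference 0.337 to 0.852). Symbols were taken from the array annotation and the RefSeq gene table (assembly GRCr8), and probe coordinates (rn4) from the array files. Each gene stood for its brightest probe by the mean over the 12 arrays of 3c3. Probes well above background on all arrays of a day of 3c3 were tested with limma 3.58.1 (lmFit, eBayes; R 4.3.3, Python 3.11.15) on these 12 arrays, with day as 4 levels and the replicate as block, two-sided, at an adjusted p below 0.05 (Benjamini-Hochberg over all tested probes). Differences between lines were tested as an interaction on 24 arrays. Equal replicate numbers share a slide, and all 18 same-numbered pairs of 3c3 arrays deviated together (correlation 0.25 or more, median 0.48; limit 0.1). For a gene on no array, or 1 array, of one day well above background, the fold is a bound: the mean of the bright day over the mean, per array, of the higher of the lowest signal well above background and the gene's own. Changes are on the log2 scale with their SE.

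Named are the 12 largest rises and 12 largest falls measured on all 6 arrays, the 10 largest bounds for each day, up to 4 members of each of 56 gene lists, and cell type markers. Genes in the study's text are given only as list members or markers. Some genes that this rule names are not reported here. The comparison, members and lists were chosen with earlier results of these data known. Alternatives changed scaling, background correction (normexp, offset 50), filter, block, arrays fitted and replicates, and included the methods' t-test. Precision is limited by the number of arrays. The fit was tested on simulated data.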

Additional observations from a re-analysis of the deposited data

Results flagged for a closer look

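The change from d0 to d6 was called in opposite directions in 3c3 and Cl19, with a difference that passed the interaction test (limma, adjusted p below 0.05), for 451 genes. Given here are the 18 of them that belong to the genes named by rule or in the text and that each of the 12 arrays of these days and lines measured above background. Differences are the 3c3 change minus the Cl19 change on the log2 scale. Of these 18, those that rose in 3c3 and fell in Cl19 were *Aqp8* (8.64), *Svs4* (8.22), *Tesc* (7.03), *Pi16* (6.39), *Tie1*, a receptor of endothelial cells (3.42), and the antigen presentation genes *Psmb8* (6.13), *Psmb9* (5.08), *Tap2* (4.68) and *B2m* (2.44). The 4 antigen presentation genes had 3c3 changes of 2.66, 2.52, 2.97 and 1.11 and Cl19 changes of −3.47, −2.56, −1.70 and −1.34.

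Those that fell in 3c3 and rose in Cl19 were *Sik1* (−6.29), the neuronal RNA-binding protein gene *Elavl2* (−5.58), the non-muscle myosin heavy chain gene *Myh14* (−5.47), the protease inhibitor gene *Serpine2* (−5.10), *Abr* (−3.95), the transcription factors *Runx1* (−3.07) and *Twist1* (−2.42), the receptor gene *Fgfr2* (−2.68) and *Fgg* (−1.17). The 3c3 changes of *Runx1*, *Twist1*, *Fgfr2* and *Fgg* were −0.76, −0.62, −1.77 and −0.58, and their calls in 3c3 were lost under at least 1 alternative, for *Fgfr2* without replicate 2 or replicate 3.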

How the results depend on the processing

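Over the alternatives 3527 to 6749 probes were higher and 4624 to 9326 lower on d6 (main 5243 and 8476), and 4148 to 6504 differed between the lines (main 6032). The 4624 came from the methods' t-test after Benjamini-Hochberg, which called 4368 higher and 6310 lower at an unadjusted p below 0.05. Without the replicate block, that is without pairing by slide, 4447 probes were higher, 6531 lower and 4167 differed between the lines.

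The median change of the tested probes (−0.24) became 0.03 without normalization, −0.02 with no filter on dim probes, −0.10 with normexp, −0.18 with a floor on dim signals or when all 6 arrays had to be above background, −0.21 with a filter over 9 groups, −0.29 with 75th percentile scaling and −0.25 to −0.21 without 1 replicate. Of called probes 38.2% were higher, against 54.1%, 35.1% and 38.5% without normalization, with 75th percentile scaling and with normexp. With the scanner's weaker detection flag 34 genes in place of 183 were found on d6 only and 7 in place of 85 on d0 only. Without 1 replicate these were 216 to 244 and 89 to 176, the 176 without replicate 1.

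For 318 named genes 4431 values were recomputed: 4305 kept direction and side of the threshold, 107 in 30 genes lost the call, 19 means over all probes of a gene moved by more than the spread between replicates and 0 changed sign. Of 1568 recomputed list counts 177 moved by over 1.5 times. The causes were not tested. Signal over background limits genes near background: where 0 or 1 array of a day was above it a bound or the signals are given, and where 2 were, a fitted change that includes a dim signal.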
